A study of Bos taurus with 31 samples.

Results

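The 10 genes described here encode the enzymes that carry propionate and pyruvate into hepatic glucose synthesis, together with a coactivator of that pathway. They were picked by symbol as steps of the pathway, at a time when earlier results of these data were known, and all 10 are among the 24616 genes of the count table of 31 bovine liver biopsies. All 10 also passed the filter on low counts, which left 15916 genes for testing. The biopsies came from lactating German Holstein cows after 16 weeks in a feeding trial with a factorial design. The diet either carried glyphosate residues (GLY), the active substance of a herbicide, or was a control diet (CON) to which no such feed was added, so that control cows took up only background residues. Each of these diets was fed with a high (HC, 60% of the dry matter) or a low (LC, 30%) concentrate feed proportion (CFP), which gave the groups CONHC (8 cows), CONLC (8 cows), GLYHC (8 cows) and GLYLC (7 cows). Every library is a different cow, named here by its animal number. All 4 groups shared the breed and the time point.

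Ruminants absorb little glucose from the gut, because rumen microbes ferment most dietary carbohydrate to short-chain fatty acids, and the liver therefore makes glucose continuously. Propionate, whose ruminal production increases with concentrate feeding, is its main precursor. It is activated to propionyl-CoA, carboxylated by the biotin enzyme propionyl-CoA carboxylase (*PCCA* and *PCCB* subunits), epimerised by *MCEE* and rearranged to succinyl-CoA by the cobalamin-dependent mutase *MUT*. Lactate and amino acids enter through pyruvate, which pyruvate carboxylase (*PC*) turns into oxaloacetate. Phosphoenolpyruvate carboxykinase exists as a cytosolic (*PCK1*) and a mitochondrial (*PCK2*) enzyme, and fructose-1,6-bisphosphatase (*FBP1*) and glucose-6-phosphatase (*G6PC*) catalyse the later irreversible steps. *PPARGC1A* encodes PGC-1alpha, which coactivates transcription of *PCK1* and *G6PC* in the fasted liver of rodents.

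The depth was 11675775 to 36675542 assigned reads per cow, and *PPARGC1A*, the member with the fewest reads, still had between 139 and 660 of them in each cow. Normalized counts below are reads scaled with TMM factors to the mean library, and levels are not compared between genes because gene lengths were not at hand. The summed normalized counts of 6 hepatocyte markers, led by *ALB*, lay between 2170470 and 3869060 in 30 cows and at 1252510 in cow 912 of GLYLC. The sum mainly follows *ALB*, whose median was 2225300, against 485059 for *TF*, 5424 for *APOA1* and 2571 for *HNF4A*. *APOA1* was the only 1 of the 6 markers that was highest in cow 912 (14861). The 5 measured markers of intestinal epithelium summed to 6629.9 in cow 912 and to at most 42.6 in any other cow, with a median of 0 for *FABP2*, *MUC13*, *BCO1* and *OLFM4*. Where leaving out cow 912 turned the direction of a gene's printed difference or moved it by more than 1.5 times, the value without it is given beside it. The 5 markers of stellate cells and fibroblasts summed to 44457 in cow 103 of CONLC and to at most 9355 in the other cows. The sums of the other lists ranged over all cows from 5549 to 14511 (5 macrophage and Kupffer cell markers), 4276 to 7803 (5 of endothelium), 362 to 1205 (4 of bile duct), 641 to 1903 (5 of lymphocytes) and 1.55 to 268 (2 of blood). In a biopsy, fewer cells of a type and less RNA per cell cannot be told apart.

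None of the 10 members was called in any of the 7 comparisons, neither by edgeR's quasi-likelihood test nor by DESeq2. Called means an adjusted p (Benjamini-Hochberg over all tested genes) under 0.1 together with an unadjusted one under 0.05. Between CONHC and CONLC 0 of 10 members were called, where 0% of all tested genes were called. Between GLYHC and GLYLC it was 0 of 10 at a background of 0.201%, and between HC and LC over all cows, with the treatment as a covariate, 0 of 10 at 1.45%. For glyphosate, 0 of 10 were called in GLYHC versus CONHC (0% of all genes), in GLYLC versus CONLC (0.0628%) and in GLY versus CON over all cows (0%), and the interaction of GLY with CFP also gave 0 of 10 (0%). At an unadjusted p under 0.05 stood 0 of 10 members in each of the 3 comparisons of CFP, where 5.96%, 12.5% and 13.7% of all genes did. It was 1 of 10 each in GLYHC versus CONHC (*PC*, 2.92% of all genes), GLYLC versus CONLC (*PPARGC1A*, 5.65%), GLY versus CON over all cows (*PC*, 3.92%) and the interaction (*PPARGC1A*, 4.21%).

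For 0 of 10 members were 2 groups without overlap in CONHC versus CONLC, GLYHC versus GLYLC, GLYHC versus CONHC or GLYLC versus CONLC, which was so for 0.0188%, 0.0942%, 0.00628% and 0.00628% of all tested genes. In HC versus LC over all cows, the 95% intervals of the members' log2 fold changes reached from -0.48 (*PC*) to 0.50 (*G6PC*), and extended by 0.15 (*PCCB*) to 0.34 (*G6PC*) to either side of the estimate. In GLY versus CON over all cows they reached from -0.59 (*G6PC*) to 0.67 (*PC*). Single-group comparisons had intervals of up to ± 0.50. In simulated counts of the real depths, a log2 change of 1 in HC versus LC over all cows was recovered for 135 of the 141 changed genes above 2 CPM, and every member lay above that level. The same run called 23 unchanged genes. Smaller changes were not simulated, so the recovery does not cover the members' own estimates, which lay between -0.18 and 0.17 in that comparison. The other comparisons were not simulated either.

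Of the members, 4 encode enzymes of propionate entry (*PCCA*, ENSBTAG00000010672, *PCCB*, ENSBTAG00000015221, *MCEE*, ENSBTAG00000035247, and *MUT*, ENSBTAG00000014272). Their transcripts were measured, not the entry of propionate itself. The lowest, median and highest normalized counts of *PCCA*, the biotin-carrying subunit, were 3427, 4007 and 4768 in CONHC, 2736, 3596 and 4699.7 in CONLC, 3028, 4541 and 5109.6 in GLYHC and 2823, 4146 and 4771 in GLYLC. Within each treatment the HC group had the higher median, but cow 117 of GLYHC stood below most LC cows, and all groups overlapped. Of the 10 members, *PCCA* had the smallest p in HC versus LC over all cows (log2 fold change 0.17, standard error 0.083, adjusted p = 0.367, unadjusted p = 0.0509, edgeR). Its difference was 0.15 in CON cows and 0.19 in GLY cows, and 7 of 8 HC cows exceeded the LC median within either treatment.

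*PCCB*, the carboxyltransferase subunit, had 4356, 6292 and 6593 normalized counts (lowest, median, highest) in CONHC, 4434, 5602 and 6143 in CONLC, 4029.8, 5696 and 6109 in GLYHC and 3866, 6038 and 6500.3 in GLYLC. Its HC versus LC difference of 0.059 on the log2 scale (95% interval -0.095 to 0.21, 0.028 without cow 912) was within the spread between cows. No GLYHC cow exceeded the CONHC median, although the lowest CONHC cow, number 41, lay below 7 of the 8 GLYHC cows, and the log2 fold change was -0.13 (adjusted p = 1, edgeR). *MUT*, with the most reads among these 4, ranged from 11247 to 20221 normalized counts, both extremes being GLYLC cows. Its group means were 16769 ± 2464 (SD, n = 8) in CONHC, 16261 ± 2353 (n = 8) in CONLC, 16884 ± 1964 (n = 8) in GLYHC and 15794 ± 3042 (n = 7) in GLYLC. The 7 log2 estimates of *MUT* lay between -0.042 and 0.096, and these 2 were 0.031 and 0.026 without cow 912. *MCEE*, the epimerase, had 553, 754 and 854 normalized counts in CONHC, 610.5, 730.4 and 933 in CONLC, 634, 818 and 1089 in GLYHC and 604, 829.6 and 1023 in GLYLC. The GLY medians were the higher ones, the groups overlapped, and GLY versus CON over all cows gave 0.16 (95% interval -0.0041 to 0.32, adjusted p = 1, edgeR), beside -0.012 for HC versus LC.

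**Figure D1:**
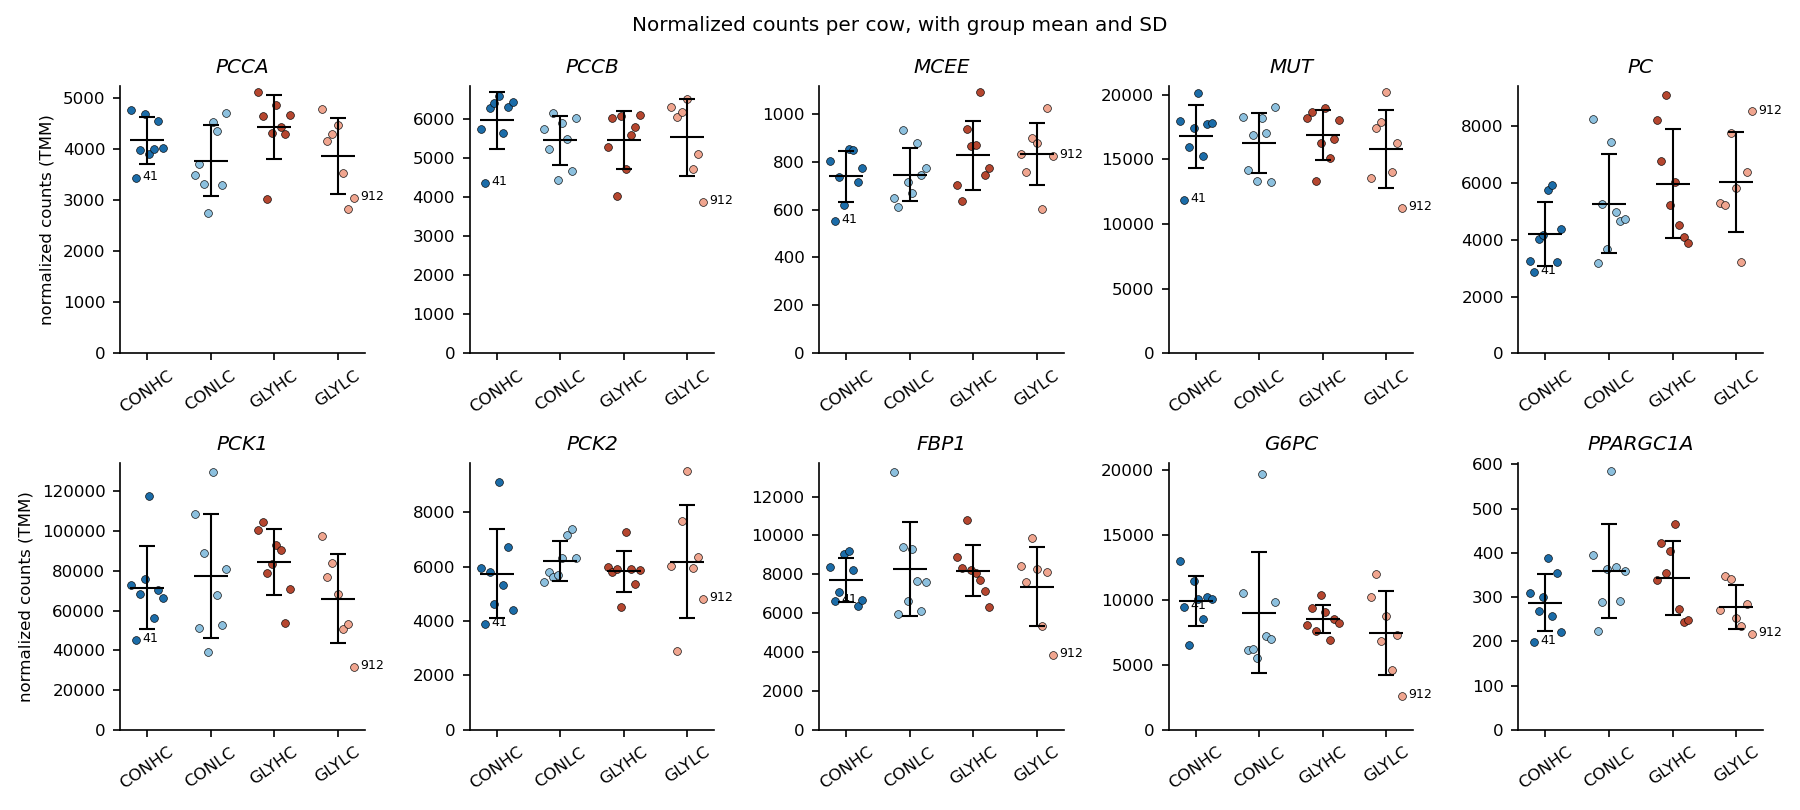
Normalized counts (TMM, vertical axes from 0) of the 10 members in each cow of the 4 groups on the horizontal axes, with the group mean (line) and SD (bars), and cows 41 (CONHC) and 912 (GLYLC) labelled. The groups overlap in all 10 panels, and cow 912 is the lowest of the 31 cows in *PCK1*, *FBP1*, *G6PC*, *PCCB* and *MUT*.

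Pyruvate carboxylase, *PC* (ENSBTAG00000019700), was the member with the largest glyphosate difference in HC cows and over all cows, but not in LC cows. Its lowest, median and highest normalized counts were 2873, 4093 and 5931 in CONHC, 3183, 4850.1 and 8238 in CONLC, 3874, 5635 and 9100.2 in GLYHC and 3217, 5819 and 8516 in GLYLC. CONHC was the lowest group, 7 of 8 GLYHC cows exceeded its median, and the ranges overlapped. The log2 fold change of GLYHC against CONHC was 0.51 (standard error 0.21, unadjusted p = 0.0213, adjusted p = 1, edgeR). Over all cows it was 0.36 (1.28-fold, unadjusted p = 0.0241, adjusted p = 1), and 0.32 without cow 912, which had the highest *PC* value of GLYLC. In LC cows the *PC* difference was 0.20, and 0.097 without cow 912. The interaction was 0.31 (95% interval -0.30 to 0.93), so a difference in the glyphosate effect between HC and LC cows was not shown. For CFP the *PC* difference was -0.33 in CON cows and -0.013 in GLY cows (0.086 without cow 912).

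The cytosolic carboxykinase *PCK1* (ENSBTAG00000001936) took a median of 0.352% of all assigned reads of a cow. It had 45238, 69434 and 117606 normalized counts (lowest, median, highest) in CONHC, 39091, 74425 and 129579 in CONLC, 53920.0, 86764 and 104326 in GLYHC and 31749, 68214 and 97276 in GLYLC. The CONLC group alone held cows from 39091 to 129579, more than the distance between any group medians. HC exceeded LC by 0.35 in GLY cows (95% interval -0.12 to 0.82) and lay at -0.11 against it in CON cows (-0.56 to 0.34), and neither difference nor the interaction of 0.47 (adjusted p = 0.999, edgeR) passed the test. Without cow 912 the difference in GLY cows was 0.23. Its mitochondrial counterpart *PCK2* (ENSBTAG00000011934) had group means of 5734 ± 1640.3 (SD, n = 8), 6213 ± 729.9 (n = 8), 5827 ± 761 (n = 8) and 6170.4 ± 2077 normalized counts (n = 7) in CONHC, CONLC, GLYHC and GLYLC. Its extremes, 2911 in cow 102 and 9494 in cow 209, were both GLYLC cows. All 7 *PCK2* estimates lay between -0.12 and 0.033, the latter being the interaction, which was -0.023 without cow 912.

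*FBP1* (ENSBTAG00000009733), whose product removes phosphate from fructose-1,6-bisphosphate, ranged over 6388, 7658 and 9177 normalized counts (lowest, median, highest) in CONHC, 5965, 7638 and 13283 in CONLC, 6298, 8148 and 10780.0 in GLYHC and 3874, 8113 and 9883 in GLYLC. The highest cow, number 60, belonged to CONLC and the lowest, number 912, to GLYLC, while the 4 group medians lay within 7638 and 8148. HC versus LC over all cows was 0.021 (95% interval -0.21 to 0.26) and GLY versus CON was -0.034 (-0.27 to 0.20). Without cow 912 both turned sign, to -0.035 and 0.025.

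*G6PC* (ENSBTAG00000010184), which releases free glucose, was the most variable member when the spread was estimated over all 4 groups, but not in each group. Its lowest, median and highest normalized counts were 6535, 10079 and 13005 in CONHC, 5552, 7103 and 19714 in CONLC, 6924, 8378 and 10349 in GLYHC and 2605, 7304 and 12019.5 in GLYLC. The highest-to-lowest ratio was 3.55 in CONLC and 4.61 in GLYLC against 1.99 in CONHC and 1.49 in GLYHC, and single cows set both LC values, since without cow 169 the ratio of CONLC was 1.89, below that of CONHC, and without cow 912 that of GLYLC was 2.63. In HC against LC, 7 of 8 cows exceeded the LC median in CON and in GLY cows, and the log2 fold change over all cows was 0.16 (95% interval -0.18 to 0.50, adjusted p = 0.738, edgeR). GLY versus CON gave -0.24 (-0.59 to 0.098), with -0.22 in HC and -0.27 in LC cows, and 1 of 8 GLYHC cows exceeded the CONHC median. Without cow 912 the HC versus LC difference changed from 0.16 to 0.091 over all cows and from 0.19 to 0.036 in GLY cows, and that of GLYLC versus CONLC from -0.27 to -0.12.

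The coactivator *PPARGC1A* (ENSBTAG00000017024) had opposite CFP differences in the CON and the GLY cows. Its lowest, median and highest normalized counts were 198, 284 and 387 in CONHC, 224, 360.4 and 585 in CONLC, 243, 346 and 465 in GLYHC and 216, 270.4 and 347 in GLYLC. No GLYLC cow reached the CONLC median and 1 of 8 CONHC cows exceeded it, while 6 of 8 GLYHC cows lay above the GLYLC median, and every pair of groups overlapped. The log2 fold change of HC against LC was -0.32 in CON cows (95% interval -0.66 to 0.017) and 0.31 in GLY cows (-0.042 to 0.66). The interaction was 0.63 (standard error 0.24, unadjusted p = 0.013), with an adjusted p of 0.999 in edgeR's quasi-likelihood test, and it was not called. It was 0.58 without cow 912 (unadjusted p = 0.0244). Between GLYLC and CONLC the difference was -0.37 (unadjusted p = 0.0384, adjusted p = 0.849), and -0.31 without cow 912 (unadjusted p = 0.0879). Over all cows HC versus LC was -0.018 and GLY versus CON -0.046, and -0.057 and -0.0041 without cow 912.

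**Figure D2:**
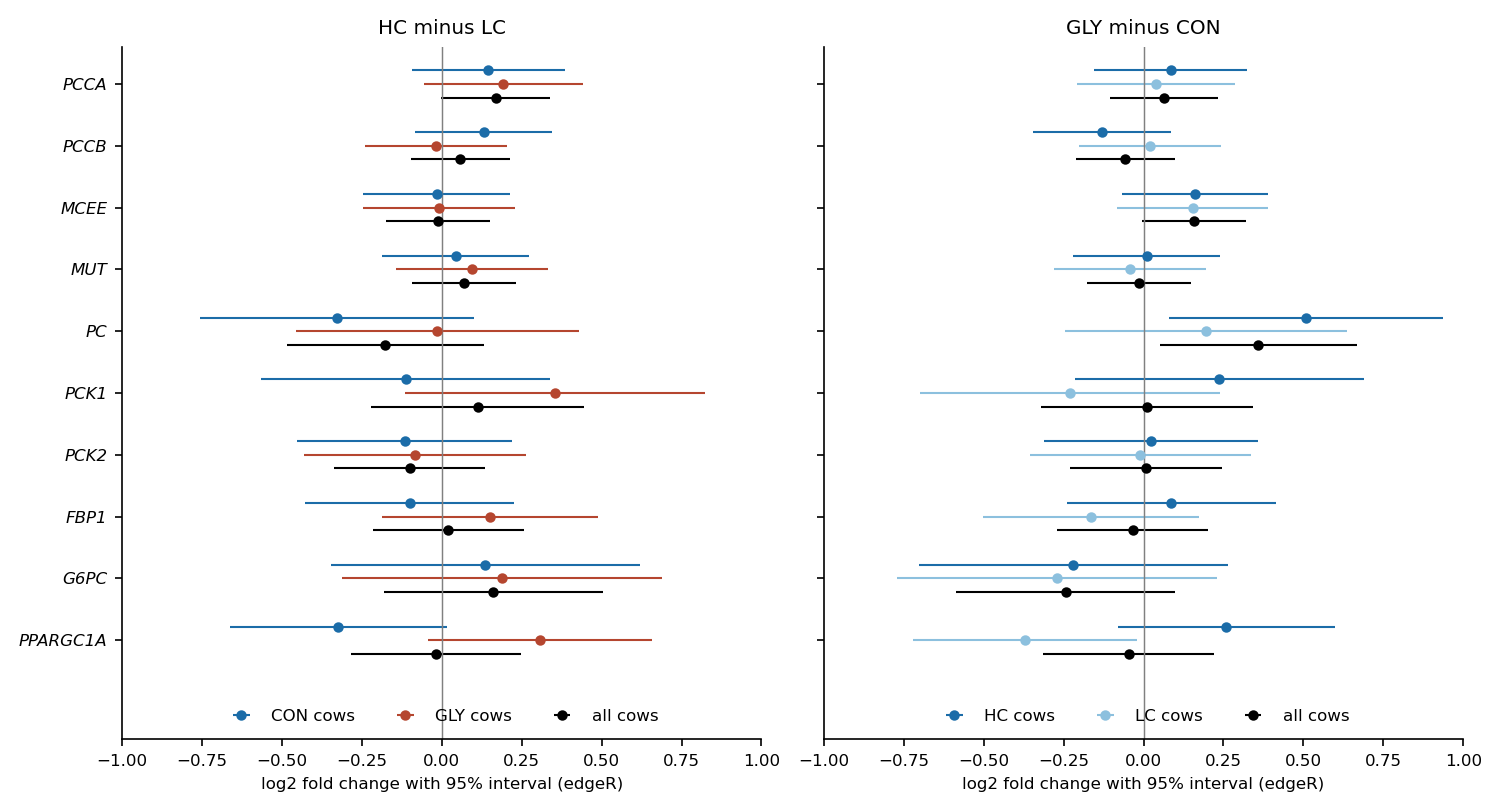
Log2 fold changes (horizontal axes) with 95% intervals from edgeR for each member, HC minus LC on the left and GLY minus CON on the right, within each of the groups of the other factor and over all cows. Most intervals cover 0, the exceptions being *PC* in GLYHC versus CONHC and over all cows and *PPARGC1A* in GLYLC versus CONLC, none of which was called after adjustment.

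Relative transcript levels of 2 members were compared by ratios of reads within a cow, in which depth cancels and gene length cancels between groups. The use of the enzymes was not measured. On the log2 scale the *PCCA* to *PCCB* ratio was -0.52 ± 0.17 (SD, n = 8) in CONHC, -0.55 ± 0.20 (n = 8) in CONLC, -0.31 ± 0.19 (n = 8) in GLYHC and -0.52 ± 0.17 (n = 7) in GLYLC. GLYHC was the highest group, by 0.21 over GLYLC (exact two-sided permutation test, p = 0.0311) and by 0.21 over CONHC (exact two-sided permutation test, p = 0.0378). Adjusted over the 18 ratio tests, both became 0.258. The *PC* to *PCK1* ratio differed by -0.34 between HC and LC over all cows (permutation test, p = 0.0556, adjusted p = 0.258) and by 0.32 between GLY and CON cows (permutation test, p = 0.0669, adjusted p = 0.258). Cow 912 had the highest *PC* to *PCK1* ratio of its group, -1.90 on the log2 scale against a group mean of -3.43, and without it the differences were -0.21 (HC versus LC, permutation test, p = 0.13) and 0.19 (GLY versus CON, permutation test, p = 0.151). The cytosolic to mitochondrial ratio, *PCK1* to *PCK2*, differed by 0.26 between HC and LC (permutation test, p = 0.165, adjusted p = 0.283) and by 0.035 between GLY and CON (permutation test, p = 0.852), the latter 0.093 without cow 912. None of the 18 differences passed after adjustment.

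Estimated over all 4 groups, the spread between cows was larger in the other 6 members than in the 4 propionate-entry genes. Within each single group these sets overlapped by their highest-to-lowest ratios. In GLYHC the ratio was 1.49 (*G6PC*) to 2.35 (*PC*) for the 6, against 1.42 (*MUT*) to 1.72 (*MCEE*) for the 4. In CONLC it was 1.36 for *PCK2* and at least 2.23 (*FBP1*) for the rest of the 6, against 1.39 (*PCCB*) to 1.72 (*PCCA*). The biological coefficient of variation from edgeR, the relative spread between cows beyond counting error, was 0.332 for *G6PC*, 0.310 for *PCK1* and 0.295 for *PC*. It was 0.237 for *PCK2* and 0.231 for both *FBP1* and *PPARGC1A*, but 0.175 for *PCCA*, 0.169 for *MUT*, 0.164 for *MCEE* and 0.160 for *PCCB*. Among the 5127 tested genes with at least the mean level of *PPARGC1A*, the median was 0.158 and the upper quartile 0.207. The 4 propionate-entry genes were thus near the median of comparable genes and the other 6 members above the upper quartile, as a description without a test. Without cow 912 the same held, with 0.148 (*PCCB*) to 0.173 (*PCCA*) for the 4 genes and 0.205 (*FBP1*) to 0.293 (*G6PC*) for the other 6, beside a median of 0.149 and an upper quartile of 0.194. Single cows were extreme in several members. Cow 41 of CONHC had the lowest value of its group in 8 members and of all cows in *PC*, *MCEE* and *PPARGC1A*, and cow 134 the highest value of the same group in 7. In CONLC, cow 169 had the highest *PCK1*, *G6PC* and *PPARGC1A* of all 31 cows. The hepatocyte marker sum was 3030440 in cow 41, 3431490 in cow 134 and 3408190 in cow 169, all within the range of the other cows, and it was 1252510 in cow 912.

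Most members varied together from cow to cow within groups. For each gene, the deviations of log2 CPM from the mean of the own group were correlated over the 31 cows, in 45 pairs of members. Of these, 41 had a positive Pearson's r and 20 an adjusted p under 0.05 (permutation within groups, 100000 resamples), all 20 positive. Spearman's rho passed in 18 pairs. As a background, the share of 10953 other genes that correlated with a member at least as strongly as the weakest of the 20 pairs (r = 0.44) was between 2.05% (*MCEE*) and 9.54% (*G6PC*). *PCK1* took part in 7 passing pairs, *G6PC* and *MUT* in 6 each, *FBP1* and *PPARGC1A* in 5 each, *PCCA* and *PCCB* in 4 each and *PC* in 3. *PCK2* and *MCEE* took part in 0 of their 9 pairs each.

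The strongest pair by Pearson's r was *PCCB* and *MUT*, both of the propionate route but separated by the step of *MCEE* (Pearson's r 0.77, permutation p = 5.00e-05, adjusted p = 0.00075, Spearman's rho 0.60, permutation p = 0.00127, adjusted p = 0.00571, n = 31). Without the 2 cows farthest from the median of *PCCB*, numbers 41 and 912, r was 0.64. This rank depended on the measure and on cow 912. By Spearman's rho, *PCK1* and *FBP1* came first (0.74). Without cow 912, *PC* and *FBP1* had the highest Pearson's r (0.83, against 0.71 for *PCCB* and *MUT*). The same pair came first with the hepatocyte marker sum regressed out (0.75 against 0.62). The carboxylase subunits *PCCA* and *PCCB* followed each other as well (Pearson's r 0.68, permutation p = 0.00022, adjusted p = 0.00146, Spearman's rho 0.55, permutation p = 0.00377, adjusted p = 0.0121), with r = 0.57 without cows 166 and 117. Among the later steps, *PCK1* was correlated with *FBP1* (Pearson's r 0.75, permutation p = 2.00e-05, adjusted p = 0.00045, Spearman's rho 0.74, permutation p = 4.00e-05, adjusted p = 0.0018) and r was 0.69 without cows 166 and 912. *PCK1* and *G6PC* gave r = 0.69 (permutation p = 0.00026, adjusted p = 0.00146, rho = 0.64, permutation p = 0.00101), and 0.57 without the same cows.

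The coactivator *PPARGC1A* went with *PCK1* (Pearson's r 0.67, permutation p = 2.00e-05, adjusted p = 0.00045, Spearman's rho 0.65, permutation p = 0.00015, adjusted p = 0.00225) and with *G6PC* (Pearson's r 0.58, permutation p = 0.00026, adjusted p = 0.00146, Spearman's rho 0.58, permutation p = 0.00052, adjusted p = 0.0042). Without the 2 cows farthest from the median of *PCK1*, or of *G6PC*, these r were 0.74 and 0.45. The smallest p that these permutations can give is 1e-05. *PC* went with *FBP1* (Pearson's r 0.54, permutation p = 0.00412, adjusted p = 0.0116, Spearman's rho 0.62, permutation p = 0.00056, adjusted p = 0.0042, r = 0.42 without cows 60 and 544) but not detectably with *G6PC* (r = 0.14, permutation p = 0.51, rho = 0.18, permutation p = 0.357). Of the 20 pairs, 19 kept an unadjusted permutation p under 0.05 without the 2 cows farthest from the median of 1 gene of the pair. Cows were not chosen by the other gene. The exception was *FBP1* and *MUT* (r = 0.37 without cows 60 and 912), which rests on those cows. Without cow 912, 16 of the 20 pairs passed, with r = 0.83 for *PC* and *FBP1* and 0.60 for *PCK1* and *G6PC*. The 4 pairs lost without it were *FBP1* with *G6PC* (r from 0.60 to 0.43), *FBP1* with *MUT* (0.51 to 0.37), *G6PC* with *PCCB* (0.56 to 0.40) and *G6PC* with *MUT* (0.58 to 0.45), so that 3 of the 6 pairs of *G6PC* were among them. With the hepatocyte marker sum regressed out of the deviations, 15 of the 20 passed and *PC* and *MUT* were added (r = 0.44). Those lost were *G6PC* with *FBP1* (r = 0.45), *PCCA* (0.46), *PCCB* (0.34) and *MUT* (0.35), and *FBP1* with *MUT* (0.27). The correlations within groups were not tested separately for each diet.

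**Figure D3:**
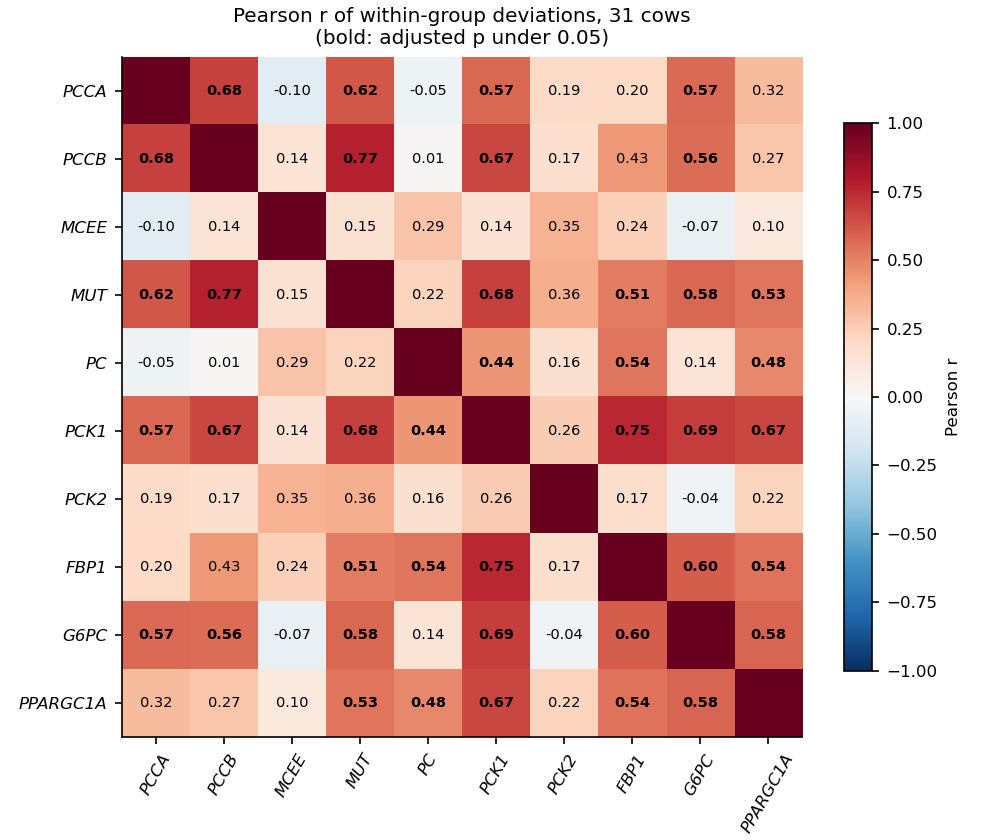
Pearson's r between the within-group deviations of each pair of members over 31 cows, from blue (-1) to red (1), with bold values for an adjusted p under 0.05. Bold values join *PCCA*, *PCCB* and *MUT* with *PCK1* and *G6PC*, of which *G6PC* with *PCCB* and with *MUT* did not pass without cow 912, while the rows of *MCEE* and *PCK2* hold none. The pairs of *G6PC* with *PCCA*, *PCCB* and *MUT* did not pass with the hepatocyte marker sum regressed out.

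**Figure D4:**
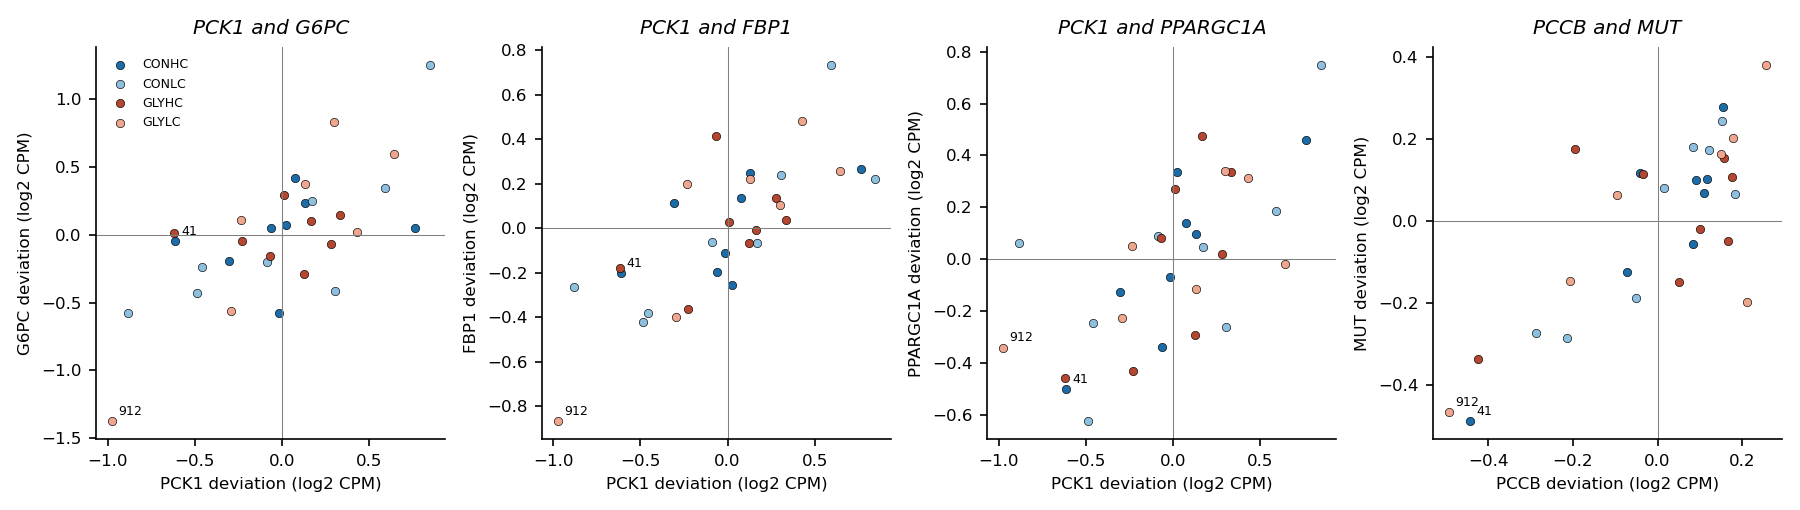
Deviations of log2 CPM from the group mean for 4 pairs of members, 1 point per cow, coloured by group, with cows 41 and 912 labelled. All 4 clouds rise from lower left to upper right, and cow 912 is at the lower left end for *PCK1* with *G6PC* and with *FBP1*.

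Outside the members, the genes whose within-group deviations were most like those of 4 members were ranked by Spearman's rho over the 31 cows among 10953 genes with a symbol and a median of at least 1 CPM. For *PCK1* they were AMDHD1 (Spearman's rho 0.79, Pearson's r 0.80), THYN1 (Spearman's rho 0.77, Pearson's r 0.76) and SRD5A1 (Spearman's rho 0.76, Pearson's r 0.75). *AMDHD1* encodes an enzyme of histidine breakdown and *SRD5A1* a steroid 5-alpha-reductase. For *G6PC* they were VNN1 (Spearman's rho 0.81, Pearson's r 0.77), MAOB (Spearman's rho 0.79, Pearson's r 0.81) and WASF3 (Spearman's rho 0.78, Pearson's r 0.73). *VNN1* encodes a pantetheinase and *MAOB* a monoamine oxidase. The list for *PC* was CREB3L3 (Spearman's rho 0.80, Pearson's r 0.79), CLUH (Spearman's rho 0.80, Pearson's r 0.81) and CNOT7 (Spearman's rho 0.80, Pearson's r 0.77), of which *CREB3L3* encodes a hepatic transcription factor bound to the endoplasmic reticulum. *PPARGC1A* was followed by HAL (Spearman's rho 0.72, Pearson's r 0.63), AASS (Spearman's rho 0.72, Pearson's r 0.60) and MAPKAPK2 (Spearman's rho 0.71, Pearson's r 0.73). *HAL* encodes histidine ammonia-lyase and *AASS* the enzyme that starts lysine breakdown. These are the best of many genes and carry no p.

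Genes around the members were examined in 7 lists with 92 genes, of which 88 were tested. Of the others, *G6PC2* had 1 read in all, and *SLC25A10*, *CEBPA* and *CEBPB* were not analysed here. Of the 88, 1 was called in GLYLC versus CONLC (*GPT2*, lower) and 1 in HC versus LC over all cows (*PKLR*, higher). In either direction, 0.0628% and 1.45% of all tested genes were called in these 2 comparisons. *GPT2* was itself the only gene called lower in GLYLC versus CONLC (0.00628%), so that share is no separate background. In HC versus LC, 0.679% of all genes were called higher. The other 5 comparisons called 0 of the 88 with edgeR's quasi-likelihood test. In these, 8 (CON cows) and 11 (GLY cows) of the 88 had an unadjusted p under 0.05 for CFP, where 5.96% and 12.5% of all tested genes did. It was 3 in GLYHC versus CONHC (2.92% of all genes), 5 in GLY versus CON over all cows (3.92%) and 6 in the interaction (4.21%). Without cow 912 the count was 6 for CFP in GLY cows, 3 in GLY versus CON over all cows and 3 in the interaction. The shares of all tested genes in that fit were not determined, so these counts have no background. DESeq2 on all cows called 1 for CFP in CON cows (27 of all 15916 tested genes) and 1 in the interaction (1 of 15916), both *GPT2*, and 0 in the other 3. On only the 2 compared groups it called 6 for CFP in CON cows (*GPT2*, *GCGR*, *GPI*, *TPI1*, *PKLR* and *SUCLG2*), where 80 of all 15871 tested genes were called.

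*GPT2*, the mitochondrial alanine aminotransferase that supplies pyruvate from alanine, had its highest level in CONLC. Its lowest, median and highest normalized counts were 151, 218 and 289.7 in CONHC, 268, 349 and 549 in CONLC, 202, 292 and 432 in GLYHC and 119, 195 and 283 in GLYLC. Only the 2 highest GLYLC cows exceeded the lowest CONLC cow (log2 fold change -0.88, standard error 0.19, adjusted p = 0.0871, edgeR). The CFP difference was -0.79 in CON cows (adjusted p = 0.204) and 0.54 in GLY cows (adjusted p = 0.236). The interaction of 1.33 (standard error 0.26, unadjusted p = 1.57e-05) had an adjusted p of 0.251 in edgeR and of 0.00824 in DESeq2 on all cows. The order of the 4 group medians was the same as for *PPARGC1A*, with CONLC highest, then GLYHC, CONHC and GLYLC. In *GPT2* the call in GLYLC versus CONLC was kept only when GLYHC cow 131 or GLYLC cow 42, 147, 209 or 544 was the cow left out, with adjusted p between 0.0395 and 0.0946, and without GLYLC cow 912 the log2 fold change was -0.81 (adjusted p = 1).

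*PKLR*, the liver pyruvate kinase that runs against glucose synthesis, was higher with HC feeding. It had 1988, 2453 and 2859 normalized counts (lowest, median, highest) in CONHC, 1543, 1882 and 2077 in CONLC, 1722, 2065 and 2385 in GLYHC and 828, 1635 and 2487 in GLYLC. The HC groups had the higher medians within both treatments, with overlapping ranges, and the difference over all cows was called (log2 fold change of 0.33 with a standard error of 0.093, edgeR adjusted p = 0.0948). The call was kept without any of CONHC cow 144, CONLC cows 169 and 260, GLYHC cows 37 and 117 and GLYLC cows 102, 544, 905 and 912, and it was lost without any 1 of the other 22 cows, with adjusted p of at most 0.145. Among the 15 genes of enzymes that oppose the pathway, 13 had a higher and 2 a lower estimate in HC versus LC over all cows, with a median of 0.084 against -0.015 for all tested genes, and 1 was called. In CON cows 9 of the 15 were higher (median 0.036, against -0.015), and in GLY cows 14 were (median 0.17, against -0.0079). The counts over all cows and in GLY cows include cow 912 and were not determined without it. Of the 15, 14 were lower in GLYLC than in CONLC (median -0.14, against -0.0024). In GLYHC versus CONHC 8 were lower and 7 higher (median -0.012, against 0.0053).

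**Figure D5:**
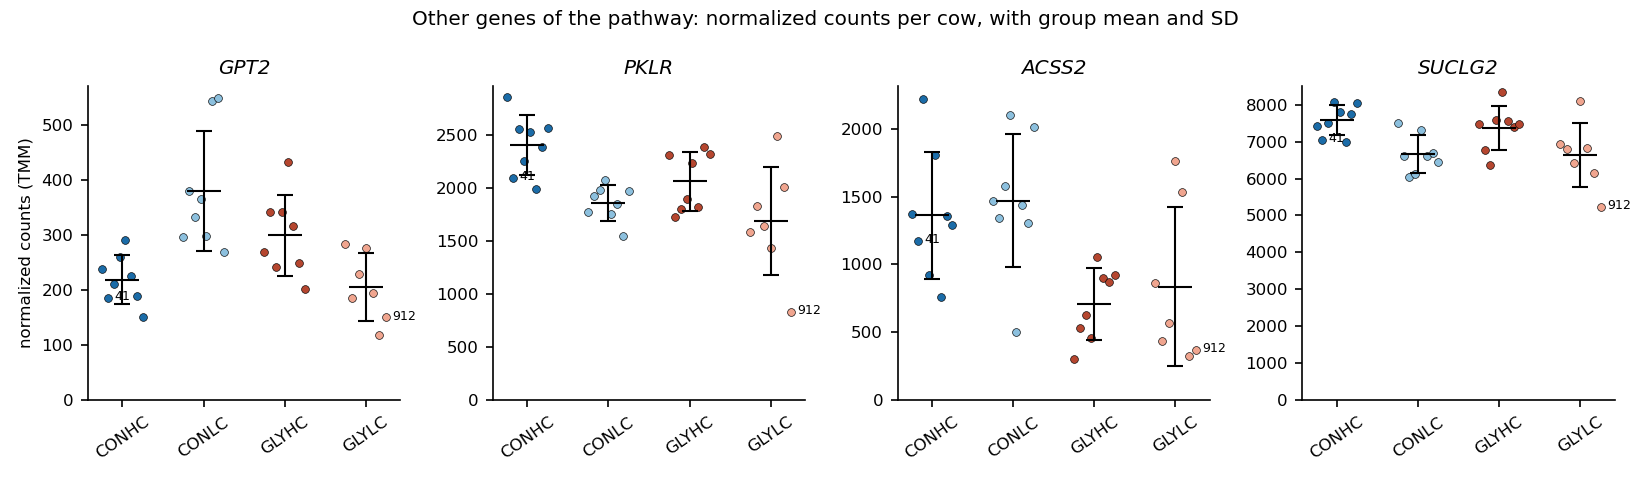
Normalized counts (TMM, vertical axes from 0) of *GPT2*, *PKLR*, *ACSS2* and *SUCLG2* in each cow of the 4 groups, with group mean (line), SD (bars) and cows 41 and 912 labelled. *GPT2* is highest in CONLC, *PKLR* and *SUCLG2* have higher means in the HC groups, and *ACSS2* has lower means in the GLY groups without passing the test.

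The other pathway genes with the smallest p in HC versus LC over all cows were not called by edgeR. On the higher side, *SUCLG2*, a succinyl-CoA ligase subunit directly after *MUT*, differed by 0.17 ± 0.050 on the log2 scale (standard error; adjusted p = 0.112), and *PFKFB3*, which makes the glycolytic activator fructose-2,6-bisphosphate, differed by 0.45 ± 0.15 on the log2 scale (standard error; adjusted p = 0.159). *PFKFB3* was called without cow 912 (0.58, adjusted p = 0.0458), and *SUCLG2* when any 1 of CONLC cow 169, GLYHC cow 117 and GLYLC cow 209 was left out. On the lower side stood fumarate hydratase *FH* (-0.30 ± 0.14, adjusted p = 0.308), triosephosphate isomerase *TPI1* (-0.23 ± 0.10, adjusted p = 0.32) and the pseudokinase *TRIB3* (-0.31 ± 0.15, adjusted p = 0.339), the last at -0.16 without cow 912. In GLY versus CON over all cows, *ACSS2*, an acyl-CoA synthetase that activates acetate, had the smallest p of the 88. Its group means were 1363 ± 467 (SD, n = 8), 1470.4 ± 492 (n = 8), 706 ± 266 (n = 8) and 835 ± 587 normalized counts (n = 7) in CONHC, CONLC, GLYHC and GLYLC. No GLYHC cow exceeded the CONHC median, but the ranges overlapped, and the log2 fold change of -0.88 (standard error 0.23) had an adjusted p of 0.59 in edgeR. *MMAB*, which makes the cofactor of *MUT* from cobalamin, had -0.25 (adjusted p = 0.924), and tyrosine aminotransferase *TAT* -0.30 (adjusted p = 1). On the higher side were *LDHB* (0.25, adjusted p = 1), the pyruvate carrier subunit *MPC1* (0.27, adjusted p = 1) and *SDSL* (1.07, adjusted p = 1), whose group medians were at most 4.37 normalized counts while GLYLC cow 912 had 75.2. Without that cow the difference of *SDSL* was 0.056.

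By role, the 18 genes of propionate uptake, activation and cobalamin handling had a median log2 fold change of -0.057 in HC versus LC and -0.016 in GLY versus CON over all cows, with 0 called. The 15 tested genes from succinyl-CoA to oxaloacetate had -0.014 and -0.028, the 12 of lactate, amino acid and glycerol entry -0.059 and 0.057, and the 7 reversible glycolytic enzymes -0.052 and -0.028, again with 0 called. The 4 tested genes of glucose release and paralogues had -0.081 and -0.065, and the 17 tested genes of hormone and transcription control -0.0018 and 0.024. The corresponding medians over all tested genes were -0.015 and 0.0037. In GLYLC versus CONLC, 64 of the 88 genes had a negative estimate (median -0.081, against -0.0024 for all tested genes), and 7 of the 88, 4 of them lower, had an unadjusted p under 0.05, where 5.65% of all tested genes did. Without cow 912, the cow of GLYLC with the low hepatocyte marker sum, it was 56 of the 88 (median -0.046, against -0.0034), and 3 of the 88, 2 of them lower, had an unadjusted p under 0.05. The share of all tested genes at that p was not determined without this cow. The 7 reversible glycolytic enzymes were all lower in CONHC than in CONLC by their estimates (median -0.17), with 2 at an unadjusted p under 0.05, *TPI1* (-0.48) and *GPI* (-0.45), where 5.96% of all tested genes did, and 0 called by edgeR. DESeq2 on only these 2 groups called both (adjusted p = 0.000824 and 0.00485). The median over all tested genes was -0.015 in that comparison. The GLY cows, cow 912 included, did not share this direction. Of the 7 enzymes, 6 were higher in GLYHC than in GLYLC (median 0.098, against -0.0079 for all tested genes). With that cow left out, *TPI1* was at -0.026 in GLYHC versus GLYLC. The count and median of the 7 were not determined without it. The interaction estimate was positive for all 7 (median 0.29, against 0.0090), with 2 at an unadjusted p under 0.05 in edgeR and 0 called.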

How the data were processed

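Liver RNA of 31 cows was sequenced from stranded mRNA libraries. The authors used Trim Galore for trimming, HISAT2 2.1.0 for alignment to UMD3.1 and HTSeq 0.8.0 for counting, per the methods and the submitters' processing notes, and the strand setting is not given in the sources used here. The authors deposited raw counts per gene, which were used here, and a table of normalized signal (counts divided by a size factor per cow), which was not used because it holds the same counts rescaled. No column of values was left unassigned to a cow.

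A total of at least 20 reads over the cows was required (15916 of 24616 genes). Tests used the quasi-likelihood F test of edgeR 4.0.16 with TMM factors (R 4.3.3) in a model of the 4 groups, and in additive models for the comparisons over all cows. Standard errors were obtained from the fold change and the F statistic. Replicates were separate cows, and no pair agreed within sampling noise (chi-square per gene of at least 24.5 in 105 pairs). Group labels set the comparisons. Ratios of reads used a pseudocount of 0.5 and permutation tests (exact between 2 groups, 100000 resamples over all cows), and correlations used log2 CPM with a prior count of 2.

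Alternatives were normalization by RLE or upper quartile, no filter (at least 1 read), filterByExpr (10 reads), a robust fit, an adjusted p under 0.05, DESeq2 1.42.0, only the 2 compared groups, a prior count of 0.5, a ratio pseudocount of 5, medians, and each cow left out. For correlations, regressing out total reads or hepatocyte markers and leaving out cow 912, and the spread between cows without single cows, were chosen after seeing the data. Steps were tested on simulated counts. The members and lists were chosen with earlier results of these data known. Named were all members, list genes called by edgeR, the 3 list genes of smallest p per direction in the comparisons over all cows, and the 3 genes most like *PCK1*, *G6PC*, *PC* and *PPARGC1A*. *GPI* and *GCGR* were named after their values were seen. All 10 members matched a RefSeq symbol or synonym. Python 3.11.15, numpy 2.4.6, scipy 1.17.1, pandas 2.3.3 and matplotlib 3.10.9 were used.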

Additional observations from a re-analysis of the deposited data

Results flagged for a closer look

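In 40 tests of the members' values within groups for a cow far from the others, chance gives about 1 flag in 20 groups, and 2 values were flagged. *PCCA* in GLYHC cow 117 was 3028 normalized counts, with the nearest cow of its group at 4290.2. The same cow had the highest *PC* of all 31 cows, the highest summed macrophage, endothelial and lymphocyte markers of GLYHC (13694, 6923 and 1903 normalized counts) and the lowest hepatocyte marker sum of that group (2557630), and the part of these in the *PCCA* value was not tested. *PCCB* in CONHC cow 41 was 4356 normalized counts, with the nearest cow at 5631, while its hepatocyte marker sum of 3030440 was within the range of its group and its lymphocyte marker sum of 1396 was the highest of its group.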

How the results depend on the processing

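The count of members called was 0 in all 7 comparisons under every alternative run, including DESeq2 and each cow left out. The counts of other pathway genes called moved. For CONHC versus CONLC (0) DESeq2 called 1 on all cows and 6 on only the 2 compared groups. For HC versus LC over all cows (1) it was 0 at an adjusted p under 0.05, 0 without a filter and 2 with DESeq2. For GLYLC versus CONLC (1) it was 0 at an adjusted p under 0.05, with filterByExpr, in a robust fit and in both tools on only the 2 compared groups, and for the interaction (0) DESeq2 called 1. With 1 cow left out both counts of 1 ranged from 0 to 2. Over all genes, DESeq2 on all cows called 27, 143, 434, 0, 4, 1 and 1 genes in the 7 comparisons (edgeR 0, 32, 231, 0, 10, 0 and 0), and on only the 2 compared groups 80, 89, 3 and 2 in the 4 pairwise ones, where edgeR called 0. For GLYHC versus GLYLC the count was 66 with RLE, 11 with filterByExpr, 8 in a robust fit and 7 at an adjusted p under 0.05. For HC versus LC over all cows it was 134 without a filter and 55 at an adjusted p under 0.05, and for GLYLC versus CONLC it was 0 with filterByExpr, in a robust fit and at an adjusted p under 0.05. With 1 cow left out, the counts ranged from 0 to 7, 0 to 150, 83 to 404, 0 to 1, 0 to 41, 0 to 6 and 0 to 0. The causes were not tested.

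Directions of members close to 0 changed when 1 cow was left out, and in none of the other alternatives. The log2 fold changes then ranged as follows. *FBP1* gave -0.16 to 0.032 in CONHC versus CONLC, -0.035 to 0.092 in HC versus LC and -0.072 to 0.031 in GLY versus CON. *G6PC* gave -0.22 to 0.20 in the interaction. *MCEE* gave -0.052 to 0.038 in CON cows, -0.073 to 0.048 in GLY cows and -0.042 to 0.018 in all cows for CFP, and -0.057 to 0.064 in the interaction. *MUT* gave -0.050 to 0.055, -0.11 to 0.031 and -0.046 to 0.021 for glyphosate in HC, LC and all cows, and -0.019 to 0.13 in the interaction. *PC* gave -0.12 to 0.086 in GLYHC versus GLYLC. *PCCA* gave -0.019 to 0.10 in GLYLC versus CONLC and -0.016 to 0.11 in the interaction. *PCCB* gave -0.091 to 0.034 in GLYHC versus GLYLC and -0.024 to 0.096 in GLYLC versus CONLC. *PCK1* gave -0.25 to 0.033 in CONHC versus CONLC and -0.034 to 0.086 in GLY versus CON. *PCK2* gave -0.20 to 0.058 in GLYHC versus GLYLC, -0.041 to 0.15, -0.15 to 0.11 and -0.052 to 0.070 for glyphosate in HC, LC and all cows, and -0.089 to 0.17 in the interaction. *PPARGC1A* gave -0.062 to 0.060 in HC versus LC and -0.094 to 0.026 in GLY versus CON. The called values ranged from -0.98 to -0.77 (*GPT2*) and 0.28 to 0.39 (*PKLR*) without change of sign.

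The differences of log2 read ratios ranged, with 1 cow left out, over -0.37 to -0.19 (CONHC versus CONLC), -0.56 to -0.17 (GLYHC versus GLYLC), -0.40 to -0.21 (HC versus LC), 0.13 to 0.35 (GLYHC versus CONHC), 0.16 to 0.54 (GLYLC versus CONLC) and 0.19 to 0.39 (GLY versus CON) for *PC* to *PCK1*. For *PCK1* to *PCK2* they ranged over -0.013 to 0.21, 0.31 to 0.64 and 0.20 to 0.37 for CFP in CON, GLY and all cows, and over 0.15 to 0.27 (GLYHC versus CONHC), -0.35 to -0.012 (GLYLC versus CONLC) and -0.074 to 0.093 (GLY versus CON). For *PCCA* to *PCCB* they ranged over -0.019 to 0.066, 0.16 to 0.24 and 0.094 to 0.14 for CFP, and over 0.16 to 0.25, -0.021 to 0.084 and 0.095 to 0.15 for glyphosate. The count of 20 correlated pairs was 20 with RLE, with a prior count of 0.5 and with total reads regressed out, and 16 with hepatocyte markers regressed out or without cow 912. No paired analysis was possible because every cow has its own number and the groups share none. Even *PPARGC1A* had at least 139 reads in each cow. In HC versus LC over all cows, the intervals extended by 0.15 (*PCCB*, biological coefficient of variation 0.160) to 0.34 (*G6PC*, 0.332) to either side. The parts of depth, of the number of cows and of the spread between cows in these widths were not tested.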
